A study of Mus musculus with 2 samples.

Results

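The 9 genes described here encode the pore-forming and accessory subunits of cardiac transient outward, ultra-rapid, inward-rectifier, acetylcholine-gated and ATP-sensitive potassium channels. They are Kcnip2, Kcnd2, Kcnd3, Kcna5, Kcnj2, Kcnj3, Kcnj5, Kcnj11 and Abcc9, chosen by gene symbol, and all 9 were found among the 22882 symbols in the files. The study asked which genes change in the mouse heart when Med1, a subunit of the Mediator complex that links transcription factors to RNA polymerase II, is deleted in cardiomyocytes. The control group was Med1fl/fl, in which both Med1 alleles carry loxP sites, and the csMed1-/- group carried the same floxed alleles together with a Cre transgene driven by the α-myosin heavy chain promoter, so that deletion was aimed at cardiomyocytes and other heart cells kept the gene. All mice were of C57BL6/J background, 23 days old and of mixed sex, and no heart with Cre but without the floxed alleles was analysed here. At about this age the study reports that csMed1-/- hearts were enlarged and contracted poorly. Heart failure thus went with genotype, and its part in the differences below cannot be told apart from that of Med1 loss. Heart RNA from 5 mice of each genotype was pooled and 1 library was sequenced per pool. There are no replicates, so the spread between mice or pools is unknown, and no p-value or SD can be given for any difference below. Values are FPKM, fragment counts divided by transcript length and library size, a scaling meant to make genes of different length comparable. How well it does so here was not tested. Ttn, a heart muscle gene with a very long transcript, had 8.22 FPKM in control beside 10283 FPKM for Tnni3. Comparisons of level between genes, and shares within a family, are therefore uncertain.

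Potassium channels bring the cardiac action potential back to rest. The fast transient outward current of the mouse ventricle runs through Kv4 channels, whose surface expression and kinetics depend on the accessory protein KChIP2, and a Kv1.5 current adds to early repolarization. Inward rectifiers act around the resting potential: Kir2 channels carry the current that sets it, Kir3 channels open when acetylcholine or adenosine acts on G protein-coupled receptors, and Kir6 channels joined to a sulfonylurea receptor open when ATP runs low. Reduced transient outward current and reduced KChIP2 are well-known features of failing and hypertrophied hearts.

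All 9 genes had a lower FPKM in csMed1-/- than in Med1fl/fl hearts, and 8 of them were lower by more than 2-fold. Of all 15930 genes above 0 in both libraries, 20.0% were lower and 15.7% were higher by more than 2-fold. Over the 9 genes the log2 ratio had a median of -2.97, or 7.83-fold lower, against -0.07 over those 15930 genes. Kcnd2 and Kcnj2 stayed under 1 FPKM in both libraries. With a pseudocount of 1 FPKM, which shrinks the ratios of scarce transcripts, Kcnd2, Kcnj2 and Kcnd3 came inside 2-fold, which left 5 genes past it, all among the genes past the filter below, of which 12.3% were lower by more than 2-fold in that setting. Of the 7 genes that reached 1 FPKM in at least one library, 6 were lower by more than 2-fold, where the share of all 10489 genes past that filter was 18.0%. Kcnd3 and Kcnj3 passed the filter through the control library alone, so the count over the 7 gives no support of its own. The genes were chosen with earlier results of these data known, and the counts describe these 2 libraries only.

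**Figure D1:**
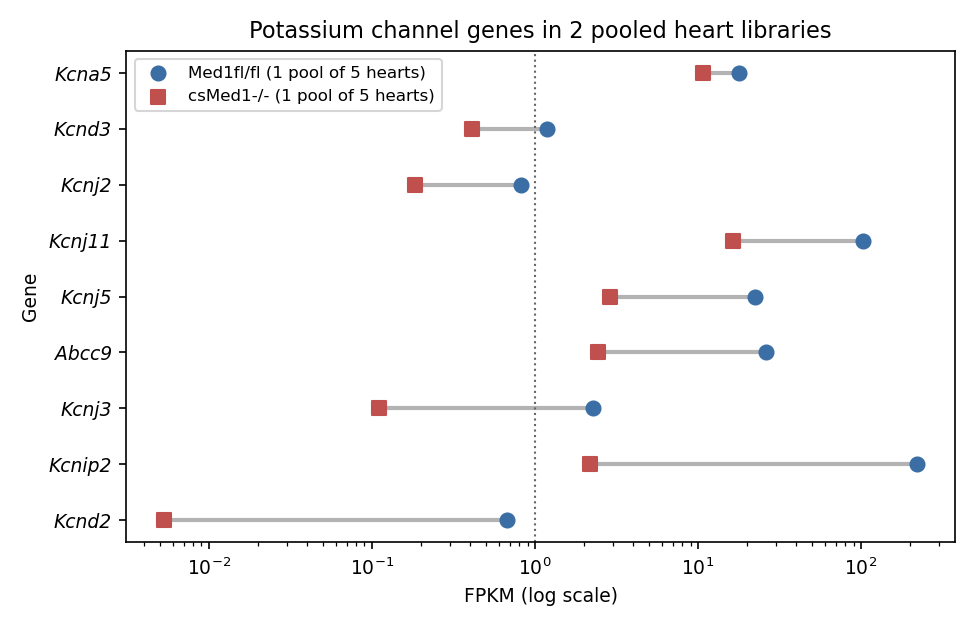
FPKM of the 9 potassium channel genes on a log scale, in the Med1fl/fl library (circles) and the csMed1-/- library (squares), 1 pool of 5 hearts each; the dotted line marks 1 FPKM. The csMed1-/- value lies to the left of the control value for all 9 genes, from Kcna5 (1.66-fold lower) to Kcnd2 (127-fold lower).

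**Figure D2:**
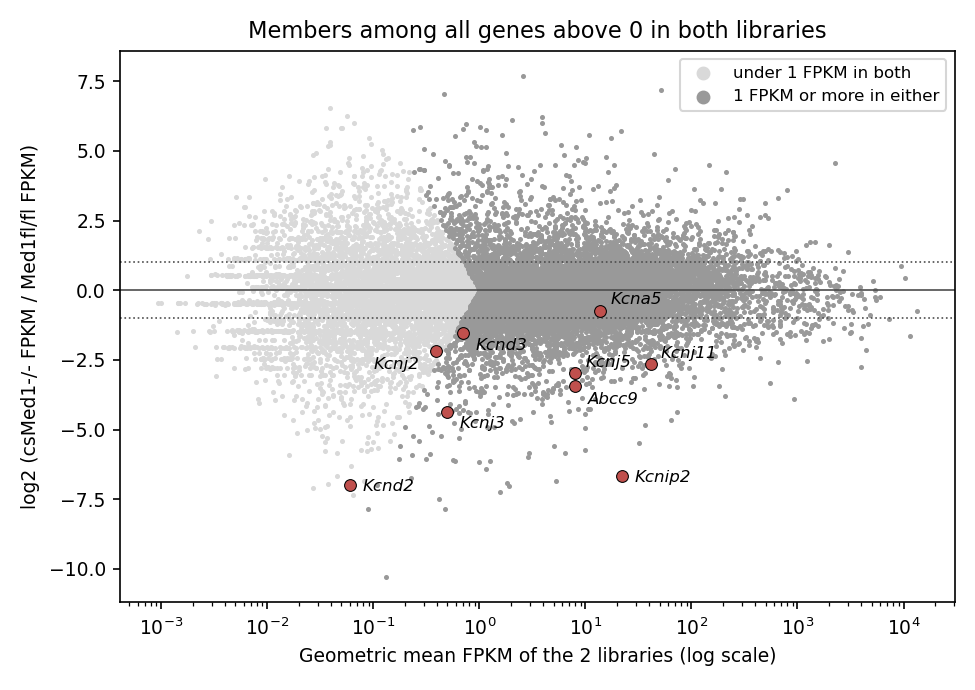
The log2 ratio of csMed1-/- to Med1fl/fl FPKM against the geometric mean FPKM (log scale) for all 15930 genes above 0 in both libraries, with the 9 potassium channel genes in red and 2-fold changes as dotted lines. Kcnip2 lies at a log2 ratio of -6.66, and only Kcna5 of the 9 lies between the dotted lines.

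The libraries matched their labels at the deleted gene: Med1 (chromosome 11, 98152154 to 98193293) had 3.38 FPKM in the control library and 0.412 FPKM in the csMed1-/- library, values that cover the whole transcript and not the floxed exons alone. Read counts are not in the files used here, but low FPKM values fall on steps of whole reads. Over 2461 rows that did not exceed 0.15 FPKM, ratios of csMed1-/- to control piled up at 0.722, with 183 rows there against 31 and 28 in windows of equal width on either side. By this step the csMed1-/- pool was sequenced 1.39 times as deeply, if the library scaling, which is not stated, was by total reads. Of 89 genes of known length at that ratio, the 19 inside a preset window of length-scaled values were taken as the first step. Their values ran from 0.0108 to 0.0189 FPKM times kilobases, a range that the window itself limits. By their median, 1 read was worth about 0.0160 FPKM times kilobases in control hearts and 0.0115 in csMed1-/- hearts. Read numbers given below are estimates from these steps and the annotated transcript lengths, and they and their intervals cover counting error only.

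The heart label matched the cardiomyocyte transcripts, with Myl2 at 20467 FPKM and Tnni3 at 10283 FPKM in control. Summed over the 7 cardiomyocyte markers above 0 in both libraries, the level was 53074 FPKM in control hearts and 22378 FPKM in csMed1-/- hearts, 2.37-fold lower, with 3 of the 7 lower and 0 higher by more than 2-fold. Actc1 (9189 FPKM in the csMed1-/- library) and the joint row of Myh6 and Myh7 (647 FPKM) are listed at 0 for control, which can be a failed estimate in such abundant genes, and both were left out of that sum. In bulk RNA, fewer cardiomyocytes and less channel RNA per cardiomyocyte cannot be told apart. The part of the lower cardiomyocyte marker level in the channel values was not tested. Atrial muscle, where Kcnj3 and Kcnj5 are known to be abundant, was checked by 5 markers: Bmp10 was at 0 in both, Sln was at 0.356 and 0.174 FPKM, and Myl7 was at 1.42 FPKM in control hearts and 1.10 in csMed1-/- hearts. Myl4 had 7.44 FPKM in control hearts and 55.2 FPKM in csMed1-/- hearts. The 5 atrial markers summed to 478 FPKM in control hearts and 11170 FPKM in csMed1-/- hearts, nearly all of it Nppa, which ventricles also make under stress, and 2 of the 3 that passed the filter were higher by more than 2-fold. The part of the atrial markers in the channel values was not tested. Markers of 7 other lists gave summed levels, in control hearts and csMed1-/- hearts, of 13.9 and 4.21 FPKM for 6 conduction genes (Isl1 at 0 in both), 308 and 645 for 6 fibroblast genes, 466 and 384 for 6 endothelial genes, 696 and 515 for 7 mural genes, 139 and 185 for 6 macrophage genes, 25.3 and 2.14 for 6 nerve genes (Chrna3 at 0 in both), and 6.47 and 4.66 for 6 skeletal muscle genes. Single genes set several of these sums: without Col1a1 the fibroblast sum was 179 and 143 FPKM, without Acta2 the mural sum was 123 and 205 FPKM, without Dbh the nerve sum was 2.83 and 1.75 FPKM, and without Myh1 the skeletal muscle sum was 2.42 and 4.19 FPKM. The median log2 ratio was -0.13 over the fibroblast and -0.11 over the mural markers. More than 2-fold lower were 2 conduction, 2 fibroblast, 2 endothelial, 1 mural, 0 macrophage, 1 nerve and 1 skeletal muscle marker, of 3, 6, 6, 7, 5, 2 and 2 that passed the filter, and more than 2-fold higher were 2 fibroblast, 2 mural, 1 macrophage and 1 skeletal muscle marker.

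Among the subunits of the transient outward current, the accessory gene Kcnip2 had by far the highest FPKM. Kcnip2 encodes KChIP2, an EF-hand calcium sensor that binds the cytoplasmic end of Kv4 channels. Its place in GRCm38 (mm10) is chromosome 19, 45791839 to 45816061, minus strand, with 10 exons in its longest RefSeq transcript. Its level was 221 FPKM in the control library and 2.18 FPKM in the csMed1-/- library, a 101-fold difference (log2 ratio -6.66). Depending on which of 4 transcripts is counted, the csMed1-/- value stands for about 131 to 452 reads, so counting error is small beside the difference. Kcnip2 ranked 484th by FPKM among all symbols in control hearts and 8132nd in csMed1-/- hearts. Only 10 of the 10489 genes past the filter had a lower ratio. Of the 958 genes at 100 FPKM or more in control hearts and above 0 in both libraries, a cutoff chosen after its value was seen, 23.9% were lower by more than 2-fold, and Kcnip2 was the only one lower by more than 50-fold.

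The genes whose pair of log2 FPKM values lay nearest to that of Kcnip2, by Euclidean distance over the 2 libraries, were Fndc5, Art1 and Ogdhl. Fndc5, the precursor gene of irisin, had 211 FPKM in control hearts and 4.78 FPKM in csMed1-/- hearts, at a distance of 1.14. Art1, a muscle mono-ADP-ribosyltransferase, had 194 and 6.80 FPKM, at a distance of 1.65. Ogdhl had 72.3 and 1.37 FPKM, at a distance of 1.74. With 2 libraries, such closeness means only a like pair of levels.

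The Kv4 pore genes had a much lower FPKM than the gene of their accessory subunit. Kcnd2 (plus strand of chromosome 6, 21215503 to 21729805) encodes Kv4.2 and had 0.677 FPKM in control hearts and 0.00531 FPKM in csMed1-/- hearts. These values stand for about 218 reads and 2 reads, so the ratio of 0.00784, a 127-fold difference, is known only within wide limits. Scaled by the step described above, those rounded read numbers gave a ratio of 0.00662. An exact conditional binomial 95% interval of that ratio ran from 0.000797 to 0.0242, that is from 41.3-fold to 1255-fold lower. On the log2 scale the FPKM ratio of Kcnd2 was -6.99, against -2.88 after adding 0.1 FPKM to each library and -0.74 after adding 1 FPKM. Kcnd3 (plus strand of chromosome 3, 105452330 to 105674002) encodes Kv4.3 and stands on 2 rows of the files, with 0.487 and 0.699 FPKM in control hearts and 0.219 and 0.190 FPKM in csMed1-/- hearts. Summed, Kcnd3 had 1.19 FPKM in control hearts and 0.409 FPKM in csMed1-/- hearts, 2.90-fold lower. Both Kcnd3 rows were lower, by ratios of 0.450 and 0.272, and adding a pseudocount of 1 to each library brought its log2 ratio from -1.54 to -0.63, inside 2-fold.

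The third Kv4 gene, Kcnd1, which is no member of the 9, was higher, with 0.194 FPKM in control hearts and 0.447 FPKM in csMed1-/- hearts. Kv4 pore transcripts therefore summed to 2.06 FPKM in control hearts and 0.861 FPKM in csMed1-/- hearts, and the share of Kcnd2 in that sum was 32.9% in control hearts and 0.616% in csMed1-/- hearts. The ratio of Kcnip2 to summed Kcnd2 and Kcnd3 FPKM was 118 in control hearts and 5.25 in csMed1-/- hearts. Among the KChIP genes, Kcnip2 made up 99.7% of the summed FPKM in control hearts and 68.3% in csMed1-/- hearts, where Kcnip3 (0.522 and 0.975 FPKM) made up 30.6%. The Kv4-binding peptidase-like subunits Dpp6 and Dpp10 were near 0, with Dpp6 at 0.00389 and 0.0217 FPKM and Dpp10 at 0 in both libraries.

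Kcna5, which encodes the ultra-rapid delayed rectifier pore Kv1.5 in a single exon (minus strand of chromosome 6, 126532551 to 126535412), differed least among the 9 genes. It had 17.8 FPKM in control hearts and 10.7 FPKM in csMed1-/- hearts, 1.66-fold lower (log2 ratio -0.73), with about 3193 and 2667 reads. The 7 cardiomyocyte markers had log2 ratios from -2.74 (Tnni3) to 0.56 (Actn2), with a median of -0.75. Their part in the Kcna5 values was not tested. Kcna5 was the most abundant of 6 Kv1 genes in both libraries, at 68.4% of their summed FPKM in control hearts and 71.4% in csMed1-/- hearts. Its neighbours in the Kv1 cluster of chromosome 6, Kcna1 and Kcna6, had log2 ratios of -1.41 and -1.25, but Kcna1 was at or under 0.112 FPKM. Kcna4, the pore of the slow transient outward current, had 0.218 FPKM in control hearts and 0.238 FPKM in csMed1-/- hearts.

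Promoter windows are shown for Kcnip2, Kcnd2 and Abcc9, which had large differences, and for Kcna5, which had the smallest. Each holds 250 bases before and 50 bases after a RefSeq transcription start (GRCm38.p6), written 5′ to 3′ on the gene's strand. They lie at chr19:45816014-45816313 (minus strand) for Kcnip2, chr6:21215096-21215395 (plus strand) for Kcnd2, chr6:142702225-142702524 (minus strand) for Abcc9 and chr6:126535506-126535805 (minus strand) for Kcna5. Capitals mark the GC box (GGGCGG) and a MEF2-type motif (CTAAAAATA), searched on both strands, so that CCGCCC in Abcc9 is a GC box of the other strand.
Kcnip2: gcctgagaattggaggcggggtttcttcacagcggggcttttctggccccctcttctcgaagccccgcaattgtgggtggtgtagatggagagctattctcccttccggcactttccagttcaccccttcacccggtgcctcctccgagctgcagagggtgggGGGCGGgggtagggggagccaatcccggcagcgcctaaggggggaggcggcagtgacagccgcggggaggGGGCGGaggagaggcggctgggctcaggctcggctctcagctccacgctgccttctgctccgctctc
Kcnd2: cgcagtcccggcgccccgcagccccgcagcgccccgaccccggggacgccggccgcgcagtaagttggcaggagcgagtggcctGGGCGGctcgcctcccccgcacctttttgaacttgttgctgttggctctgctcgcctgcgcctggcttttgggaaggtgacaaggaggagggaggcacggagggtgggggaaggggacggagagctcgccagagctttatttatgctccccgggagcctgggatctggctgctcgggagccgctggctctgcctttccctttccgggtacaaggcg
Abcc9: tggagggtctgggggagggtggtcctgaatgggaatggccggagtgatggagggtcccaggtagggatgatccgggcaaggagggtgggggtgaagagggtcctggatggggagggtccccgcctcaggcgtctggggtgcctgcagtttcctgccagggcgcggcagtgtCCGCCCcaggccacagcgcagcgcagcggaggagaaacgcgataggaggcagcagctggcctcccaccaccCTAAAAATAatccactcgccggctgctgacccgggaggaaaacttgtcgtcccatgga
Kcna5: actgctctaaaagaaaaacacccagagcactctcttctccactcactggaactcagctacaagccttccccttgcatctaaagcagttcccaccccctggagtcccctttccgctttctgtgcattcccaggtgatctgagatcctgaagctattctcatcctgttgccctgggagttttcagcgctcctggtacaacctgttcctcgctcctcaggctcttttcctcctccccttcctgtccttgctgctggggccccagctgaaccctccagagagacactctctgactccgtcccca
Of the 8 members with a window in the table, 6 held GGGCGG (Kcnd2, Kcnip2, Kcnj2, Kcnj3, Kcnj5 and Abcc9), as did 35.7% of all 32851 windows. No window of the 8 held the nuclear receptor half-site AGGTCA, found in 16.3% of all windows. The TATA box TATAAA, found in 13.6% of all windows, was in none of the 8 either. CACCC, a box not marked in capitals, was in 7 of the 8 and in 57.5% of all windows. CTAAAAATA, searched for after the sequences were seen, was found in Abcc9 and in 0.517% of all windows. The GC content of the 8 windows ran from 55% in Kcna5 to 68.7% in Kcnd2, against a median of 52.7% over all windows. Kcna5 also had the fewest CpG dinucleotides, with 4, while the other 7 had 10 to 26. These matches describe the letters only and show no binding.

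The Kir2 pore gene Kcnj2 (plus strand of chromosome 11, 111066164 to 111076821) encodes Kir2.1, a main carrier of the resting inward-rectifier current. Kcnj2 had 0.825 FPKM in control hearts and 0.184 FPKM in csMed1-/- hearts, 4.50-fold lower (log2 ratio -2.17), with about 281 and 86.6 reads, and its log2 ratio became -0.63 with a pseudocount of 1. In these libraries most of the summed Kir2 FPKM came from Kcnj12, the gene of Kir2.2. Kcnj12 had 19.7 FPKM in control hearts and 9.72 FPKM in csMed1-/- hearts. Kcnj12 was 2.03-fold lower, close to the 2-fold line, and crossed to the inner side once the ratios were centred on the median of all genes. Its share of summed Kir2 FPKM was 94.2% in control hearts and 79.3% in csMed1-/- hearts. Kcnj14 had 0.254 and 1.49 FPKM and Kcnj4 had 0.127 and 0.871 FPKM, both higher in csMed1-/- hearts, so Kir2 transcripts as a whole were 1.71-fold lower. Kcnj16, 38.2 kb from Kcnj2, was at 0.0604 and 0.0629 FPKM.

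Both heart Kir3 genes were lower. Kcnj5 (minus strand of chromosome 9, 32314707 to 32344350) encodes Kir3.4 and had 22.5 FPKM in control hearts and 2.87 FPKM in csMed1-/- hearts, 7.83-fold lower (log2 ratio -2.97). Its partner Kcnj3 (plus strand of chromosome 2, 55435970 to 55598145) encodes Kir3.1 and had 2.26 FPKM in control hearts and 0.110 FPKM in csMed1-/- hearts, 20.6-fold lower (log2 ratio -4.36). The csMed1-/- value of Kcnj3 stands for about 38.7 to 49.7 reads, and its log2 ratio became -1.56 when a pseudocount of 1 was added. Kcnj5 exceeded Kcnj3 by a factor of 9.94 in control hearts and 26.1 in csMed1-/- hearts.

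Kcnj6, which encodes the Kir3.2 subunit best known from neurons, was higher instead. It was at 0.393 FPKM in control hearts and 6.78 FPKM in csMed1-/- hearts, 17.3-fold higher, over 2 rows. That fold rests on a control value under 1 FPKM, and a pseudocount would shrink it. Summed Kir3 transcript was 25.1 FPKM in control hearts and 9.76 FPKM in csMed1-/- hearts. Kcnj5 made up 89.4% of it in control hearts and 29.4% in csMed1-/- hearts, whereas Kcnj6 made up 1.56% in control hearts and 69.5% in csMed1-/- hearts. Kcnj9, the remaining Kir3 gene, was at 0 in both libraries.

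**Figure D3:**
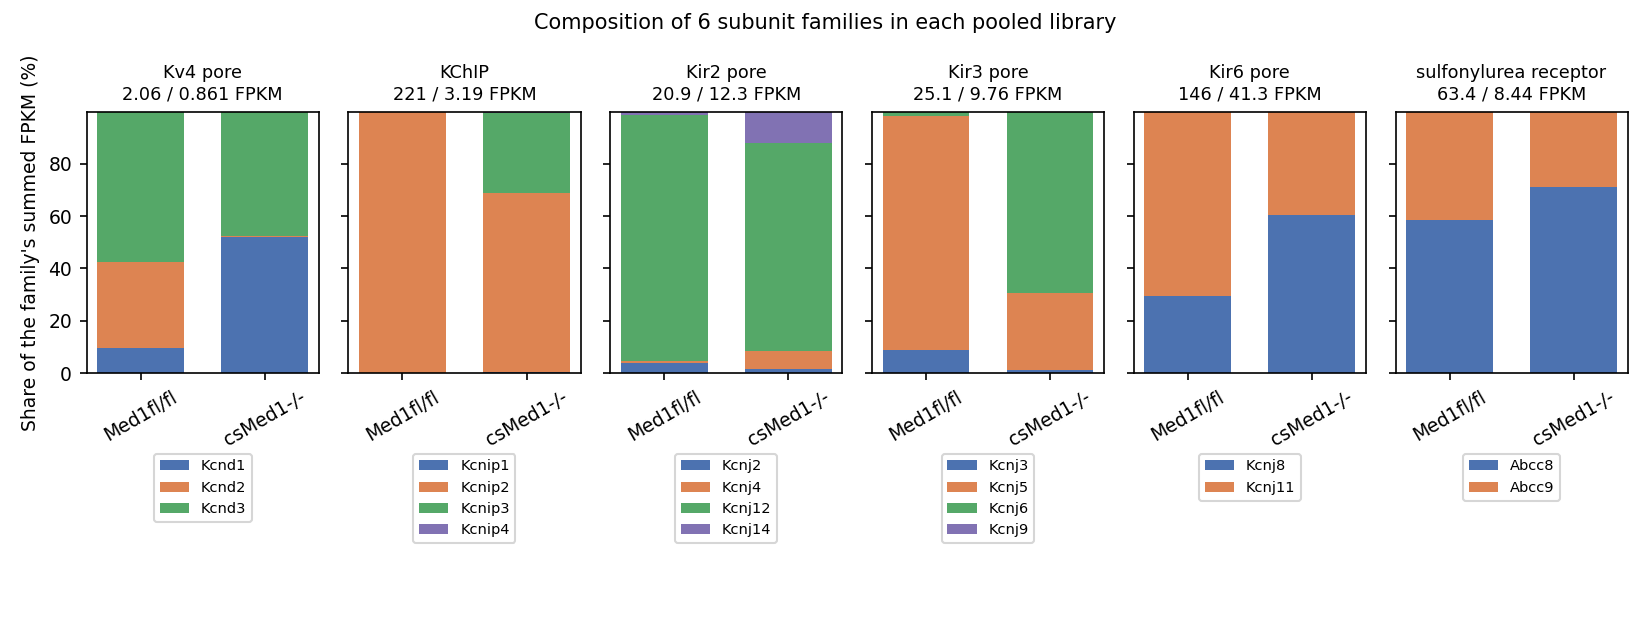
Share (%) of each gene in the summed FPKM of its subunit family in the Med1fl/fl and csMed1-/- libraries, with the family's summed FPKM in each library (control, then csMed1-/-) above the bars. In the Kir3 family Kcnj6 goes from 1.56% to 69.5% as Kcnj5 goes from 89.4% to 29.4%, and in the Kir6 family Kcnj11 goes from 70.5% to 39.7%.

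The genes of the muscle ATP-sensitive channel were lower as well. Kcnj11 (minus strand of chromosome 7, 46093953 to 46100764) encodes the pore Kir6.2 and stands on 2 rows, with 7.98 and 95.3 FPKM in control hearts and 3.08 and 13.3 FPKM in csMed1-/- hearts. Summed, Kcnj11 had 103 FPKM in control hearts and 16.4 FPKM in csMed1-/- hearts, 6.31-fold lower (log2 ratio -2.66). Its rows had ratios of 0.386 and 0.139. Abcc9 (minus strand of chromosome 6, 142587862 to 142702315), a gene of 40 exons in its longest transcript, encodes the sulfonylurea receptor SUR2, whose splice forms SUR2A and SUR2B are not separated in the files. Abcc9 had 26.2 FPKM in control hearts and 2.44 FPKM in csMed1-/- hearts, 10.8-fold lower (log2 ratio -3.43). By qPCR the study also reported Abcc9 as significantly lower in csMed1-/- hearts. The study's own RNA-seq ratio for Abcc9 was slightly lower than the one given here.

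Each of these genes lies beside a gene of the same channel class. Abcc8, the gene of the sulfonylurea receptor SUR1, lies 3.76 kb from Kcnj11 and had 37.1 FPKM in control hearts and 6.0 FPKM in csMed1-/- hearts. Its log2 ratio of -2.63 was close to the -2.66 of Kcnj11, and the ratio of Abcc8 to Kcnj11 FPKM was 0.360 in control hearts and 0.367 in csMed1-/- hearts. Kcnj8, the gene of Kir6.1, which is well known from smooth muscle and pericytes, lies 16.2 kb from Abcc9 and had 43.2 FPKM in control hearts and 24.9 FPKM in csMed1-/- hearts. Kcnj8 was thus 1.73-fold lower where Abcc9 was 10.8-fold lower, and the ratio of Abcc9 to Kcnj8 was 0.608 in control hearts and 0.0980 in csMed1-/- hearts. The 7 mural markers, which include pericyte genes, had log2 ratios from -1.04 (Myh11) to 1.91 (Tagln), with a median of -0.11. The part of mural cells in the Kcnj8 and Abcc9 values was not tested. Kcnj11 made up 70.5% of Kir6 pore transcript in control hearts and 39.7% in csMed1-/- hearts, and Abcc9 made up 41.4% and 28.9% of sulfonylurea receptor transcript.

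Over the other 40 listed potassium channel genes, 17 passed the filter, and past 2-fold 10 of these were lower and 4 higher, against 18.0% and 13.6% of all genes past the filter. Their median log2 ratio was -1.10. All 4 voltage-gated pore genes of this list that passed were lower: Kcnh2, the ERG1 pore gene, had 94.2 FPKM in control hearts and 30.01 FPKM in csMed1-/- hearts, and Kcnq1, the pore of the slow delayed rectifier, had 30.3 and 13.7 FPKM. Kcna6 was 2.38-fold lower and Kcna7 was 1.92-fold lower. Kcne1, the accessory subunit of the Kcnq1 channel, was the lowest of the 17 by ratio, with 16.6 FPKM in control hearts and 1.16 FPKM in csMed1-/- hearts, a 14.3-fold difference. Kcne4 and Kcne1l, other small accessory subunits, were 3.10-fold and 2.23-fold higher, at levels of 2.37 FPKM or less. Kcnk3, the TASK-1 background channel and the most abundant potassium channel gene of this list in control, had 200 FPKM in control hearts and 67.6 FPKM in csMed1-/- hearts. Kcnk6 was 2.14-fold lower, and the calcium-activated channel genes Kcnn1 and Kcnn2 were 7.51-fold and 4.07-fold lower. Kcnj6 and Kcnj14, described above, were the remaining genes that were higher. With a pseudocount of 1, the counts past 2-fold were 7 lower and 1 higher, against 12.3% and 10.3% of all genes.

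**Figure D4:**
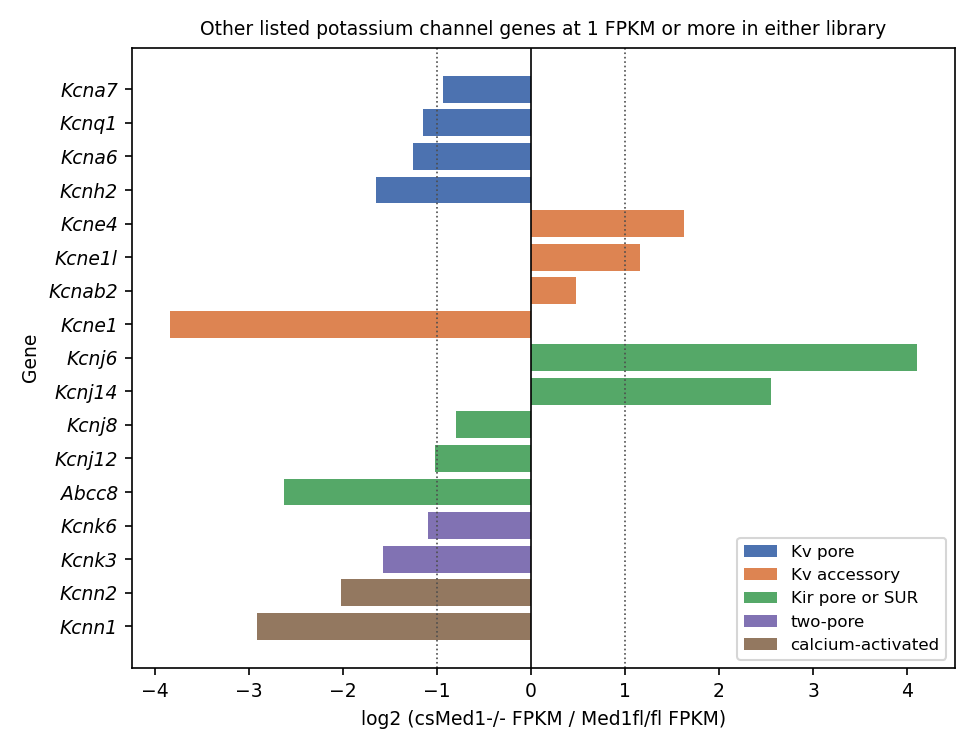
The log2 ratio of csMed1-/- to Med1fl/fl FPKM for the 17 other listed potassium channel genes at 1 FPKM or more in either library, coloured by channel class, with 2-fold changes as dotted lines. The bars run from Kcne1 at -3.84 to Kcnj6 at 4.11, and 12 of the 17 point to lower values.

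Of the transcription factors listed with these genes, Klf15, which is known to drive Kcnip2, had 31.7 FPKM in control hearts and 25.1 FPKM in csMed1-/- hearts. Irx5, a repressor of Kcnd2 in ventricular muscle, had 6.03 and 4.53 FPKM, and Irx3, a factor of the ventricular conduction system, had 22.9 and 9.64 FPKM. Of the 3 factors, Irx3 alone was lower by more than 2-fold.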

How the data were processed

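Heart RNA of 5 Med1fl/fl and 5 csMed1-/- mice was pooled by genotype, enriched for polyadenylated RNA and sequenced as 1 directional library per pool (single-end reads of 50 nt). By the study's methods, alignment by the authors was to mm10 with TopHat v2.0.8b, and FPKM over known genes came from Cufflinks v2.1.1 and cuffdiff, with a library scaling that is not stated. The submitters' processing notes also name STAR 2.4.0h and a count-based testing tool with no role given, so that these steps made the deposited FPKM rests on the methods alone. Values of symbols on several rows (412 symbols) were added up. The csMed1-/- FPKM was divided by the control FPKM wherever both exceeded 0 and the higher of them reached 1 FPKM. A change was counted past 2-fold, the study's stated size. The study's methods also set an FDR cutoff in cuffdiff, which was not applied here, so these counts cannot be set beside its own. With 1 library per genotype no test was made. Splice forms and any reads shared between paralogous channel genes rest on the authors' assignment.

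The 9 genes, the lists and the alternatives were chosen with earlier results of these data known. The genes named were the members, Med1, the listed marker and regulator genes that a sentence counts, other listed potassium channel genes past 2-fold or at 10 FPKM or more in control, and the 3 genes nearest to Kcnip2; channel genes of the members' own families and genes named for their absence were added after the values were seen. Some potassium channel genes are not reported here.

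Gene positions, exons and transcript lengths came from GENCODE M21 (GRCm38, the same assembly as mm10), and promoter sequences from RefSeq on GRCm38.p6, which held windows for 8 of the 9 members. The worth of 1 read was estimated from rows at or below 0.15 FPKM and genes with 1 RefSeq mRNA over 1000 bases. The ratio calculation was run on simulated data with planted changes larger than the threshold and little noise. That checks the code only and says nothing on the noise of the real libraries. Alternatives were pseudocounts of 0.1 and 1, 3 other filters, 3 other scalings, the highest row of a symbol alone and a 4-fold threshold. Software was scipy 1.17.1, pandas 2.3.3 and numpy 2.4.6 under Python 3.11.15, with matplotlib 3.10.9 for plots.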

Additional observations from a re-analysis of the deposited data

How the results depend on the processing

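The median log2 ratio over members kept its direction under every alternative that gives one, and all 73 member values computed under the alternatives were below 0. The count of filtered members past 2-fold moved by no more than 1.5 times, from 6 of 7 to 5 of 7 with a pseudocount of 1 (12.3% of all genes lower) or a 4-fold threshold (5.14%), to 8 of 9 with no filter on low values (20.0%), to 4 of 5 with 1 FPKM in both libraries (14.7%) or 10 FPKM in either (16.3%), and to 5 of 6 with the highest row of a symbol alone (18.1%). Moves of more than 1.5-fold came in 6 member values, with pseudocounts in each case. A pseudocount of 0.1 brought the log2 ratio of Kcnj3 to -3.49 and that of Kcnd2 to -2.88, and a pseudocount of 1 brought Kcnj3 to -1.56, Kcnd2 to -0.74, Kcnd3 to -0.63 and Kcnj2 to -0.63. Under the other scalings the median over all genes shifted by no more than 0.07. Kcnd2 rests on about 2 reads in csMed1-/- hearts, and with no replicate pool the spread between mice is unknown. No paired analysis was possible because each genotype has 1 pooled library.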

Other observations

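Counted by name rather than from a list, 95 symbols begin with Kcn, and 18 of them were at 0 in both libraries. Of these 95, 25 passed the filter, with 15 lower and 4 higher by more than 2-fold in csMed1-/- hearts and a median log2 ratio of -1.14, where 18.0% and 13.6% of all 10489 genes past the filter were lower and higher. Without the members, 10 of 19 were lower and 4 were higher by more than 2-fold. Not every abundant potassium channel gene was lower to that extent: Kcng2, a modifier of other voltage-gated channels that stands on 2 rows, had 98.1 FPKM in control hearts and 76.9 FPKM in csMed1-/- hearts. It was picked out after its values were seen.

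Outside the channels, Dbh, the noradrenaline-making enzyme of sympathetic nerves, had 22.5 FPKM in control hearts and 0.391 FPKM in csMed1-/- hearts, while the glial marker Sox10 had 2.49 and 1.54 FPKM. Hcn4, a pacemaker channel gene, had 9.76 and 2.04 FPKM.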
